A study of Mus musculus with 5 samples.

Results

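Secreted factors that are known to follow neuronal activity were examined in olfactory sensory neurons that transcribe the odorant receptor gene *Olfr151*. The 10 members were chosen by name: the neurotrophin *Bdnf*, the granin-like precursors *Vgf* and *Scg2*, the neuronal pentraxins *Nptx1* and *Nptx2*, the TGF-β family ligands *Inhba* and *Gdf15*, the neuropeptide genes *Adcyap1* and *Penk*, and the prohormone convertase *Pcsk1*. Each matched 1 of the 55411 gene rows of the count tables. Neurons were sorted by GFP from homozygous Olfr151tm26Mom knock-in males, 7 weeks of age, in which the receptor gene also drives an IRES-tau-GFP reporter. Both groups carried this allele, so both were sorted for a single receptor population of the main olfactory epithelium. Transcripts of other cell types were also counted in the pools, as given below. The exposed group received 5% acetophenone in DMSO, an agonist of this receptor, for 5 h, and the control group received DMSO alone for 5 h. The 3 controls are pools 1, 2 and 3 and the 2 exposed samples are pools 1 and 3, each made from 4 mice, and values are given in this order throughout. One field of the sample descriptions gives 200 sorted cells per pool and another gives 400.

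Neurons release peptides and growth factors from dense-core granules, which fill with granins and prohormones and are emptied by strong or repeated stimulation. Prohormones become active after cleavage by convertases such as PC1/3, the product of *Pcsk1*, and PC2, the product of *Pcsk2*. Transcription of several of these genes follows calcium and cyclic AMP through the factor CREB, which binds the CRE motif. In olfactory sensory neurons, odorant binding itself raises cyclic AMP and opens calcium-permeable channels.

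Counts summed to between 42780403 and 49527380 per pool, so that 3 counts, the detection floor used here, correspond to 0.0613 to 0.0725 CPM (counts scaled to the TMM-adjusted total of the genes tested). Markers of mature olfactory neurons, 8 genes including *Omp*, *Gnal* and *Cnga2*, summed to 59022 to 63436 CPM in control and 50814 to 51699 CPM in exposed pools. Of these 8, *Cnga2*, *Cnga4* and *Rtp1* were called lower after exposure. Sums for other cell types were far lower: 69.8 to 252 CPM for 6 sustentacular cell genes, 14.8 to 146 CPM for 9 myeloid genes, 6.77 to 351 CPM for 5 erythroid genes and 7.44 to 18.2 CPM for 6 ensheathing glia genes. The 6 immature neuron genes summed to 918 to 1071 CPM at rest and 900.4 to 1082 CPM after exposure, but not all members of this list held their level. *Gap43*, a growth cone protein gene, was called upregulated (107, 80.5 and 105 CPM against 221 and 153 CPM), *Gng8* was higher in both exposed pools than in all controls without a call, and *Tubb3* and *Dcx* were lower in both without a call. As whole pools were sequenced, fewer cells making a transcript and less of it per cell cannot be told apart.

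The effect of exposure was tested with edgeR (quasi-likelihood test) for the 10054 genes that reached 140 counts throughout at least 1 group. Genes were called where the p-value, adjusted after Benjamini and Hochberg, was under 0.1 and the log2 fold change exceeded 0.5 in size. Calls were made for 5.27% of all genes tested, 3.42% as upregulated and 1.85% as downregulated. Of the 10 members, 4 could be tested, *Vgf*, *Scg2*, *Nptx2* and *Pcsk1*. *Vgf* and *Pcsk1* were called upregulated, *Scg2* and *Nptx2* were not called, and 0 members were called downregulated. At an unadjusted p-value under 0.05, *Scg2* was also higher, and at that level 9.22% of all genes tested were higher and 9.92% lower. *Vgf*, *Scg2* and *Pcsk1* reached the count threshold in the exposed pools only, and of the 650 genes that passed in this way 7.85% were called upregulated. *Gdf15* had reads in every pool but remained under the threshold, and the remaining 5 members did not exceed 3 counts in any pool.

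**Figure D1:**
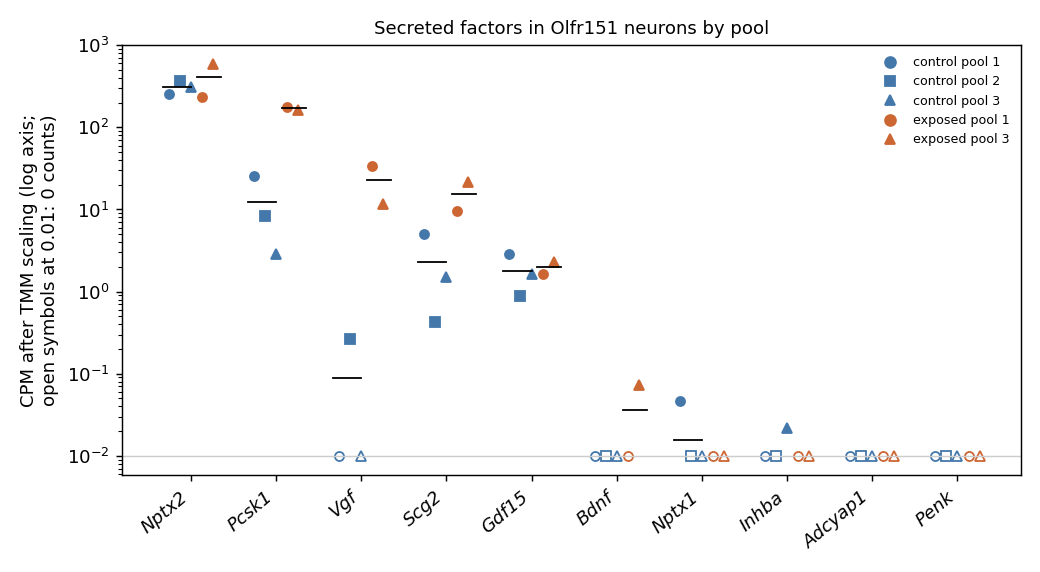
Expression of the 10 members in each pool, in CPM after TMM scaling on a log axis; symbols are pools, horizontal lines are group means (3 control and 2 exposed pools), and open symbols placed at 0.01 are pools with 0 counts. Both exposed pools lie above all control pools for *Pcsk1*, *Vgf* and *Scg2*, as for 20.3% of all genes tested. Both groups overlap for *Nptx2* and *Gdf15*, and the 5 genes on the right stay at or under 3 counts.

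Levels between genes were compared per exon length, as TPM. In control pools *Nptx2* was the most abundant member, with a mean of 424 TPM, and no control value of another member reached it. *Pcsk1* (mean 7.25 TPM), *Gdf15* (3.19 TPM) and *Scg2* (2.99 TPM) followed, and the ranges of neighbours in this order overlapped. *Vgf* came next at 0.107 TPM, below the lowest value of *Scg2*. In exposed pools the order was *Nptx2* (496 TPM), *Pcsk1* (92.4 TPM), *Vgf* (22.9 TPM), *Scg2* (18.9 TPM) and *Gdf15* (3.25 TPM), and of these neighbours only *Vgf* and *Scg2* overlapped.

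*Pcsk1* encodes PC1/3, the convertase that makes the first cuts in many prohormones of the regulated secretory pathway. The gene (ENSMUSG00000021587) lies on the plus strand of chromosome 13 of GRCm38 from 75089826 to 75134861, with exons that cover 5604 bases. The bases before its start are shown because they hold the full CRE motif, the palindrome TGACGTCA. They are GRCm38.p6 sequence from RefSeq, chr13:75089607-75089825 on the plus strand, with the CRE, whose first base is at position -78 from the RefSeq start, and a further CRE core (TGACG) at -50 in capitals.
Pcsk1: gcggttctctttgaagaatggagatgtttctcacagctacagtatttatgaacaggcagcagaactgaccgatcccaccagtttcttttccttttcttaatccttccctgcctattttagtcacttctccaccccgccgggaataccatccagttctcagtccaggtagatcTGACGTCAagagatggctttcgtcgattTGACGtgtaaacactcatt

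*Pcsk1* was counted 1105, 410 and 131 times in the controls and 7530 and 6799 times after exposure. TMM scaling turned these into 25.7, 8.38 and 2.86 CPM for the controls and 177 and 164 CPM for the exposed pools. Control pools thus differed widely among themselves while the exposed pools lay close together, and the groups did not overlap. Of all genes tested, 20.3% had both exposed pools above all control pools. Mean expression rose from 12.3 ± 11.9 CPM (SD, n = 3) to 171 ± 9.25 CPM (SD, n = 2), a ratio of 13.9. By edgeR, the log2 fold change was 3.80 with a standard error of 0.83 (adjusted p = 0.08), a value that 0.567% of all genes tested reached or exceeded. This share is over all genes, whereas *Pcsk1* passed the count threshold through the exposed pools only, which favours a large fold change. Leaving out each pool in turn gave log2 fold changes from 3.35 to 4.93. The call was lost without control pool 2 (edgeR adjusted p = 0.215), without exposed pool 1 (0.342) and without exposed pool 3 (0.203).

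The control pools ranked alike for *Pcsk1* and for the sustentacular, erythroid, myeloid and ensheathing glia markers. They ranked in the opposite order for the basal cell markers (0.418, 2.58 and 3.87 CPM). With 3 pools, unrelated lists can share an order. Sustentacular genes summed to 243, 150 and 69.8 CPM and erythroid genes to 351, 109 and 13.1 CPM in control pools 1, 2 and 3. Myeloid genes summed to 139, 20.8 and 14.8 CPM and ensheathing glia genes to 18.2, 13.1 and 9.13 CPM in these pools. Exposed pools, with much more *Pcsk1*, had 252 and 99.3 CPM of the sustentacular and 15.6 and 6.77 CPM of the erythroid genes. They had 146 and 67.1 CPM of the myeloid and 8.27 and 7.44 CPM of the ensheathing glia genes. The part of these cells in the *Pcsk1* counts of control pools was not tested. The tested genes outside the members whose course over the 5 pools was nearest to that of *Pcsk1* were *Gm13889* and *Socs3*, a suppressor of cytokine signalling. *Socs3* was counted 313, 192 and 84 times in the controls and 2280 and 1939 times after exposure. Its log2 values, centred on the control mean, differed from those of *Pcsk1* by a root mean square of 0.532 over the 5 pools (0.498 for *Gm13889*).

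*Vgf* encodes a precursor of several secreted peptides, is stored in dense-core granules and is a substrate of PC1/3. The gene (ENSMUSG00000037428) lies on the plus strand of chromosome 5 of GRCm38 from 137026392 to 137033351, with exons that cover 2973 bases. *Vgf* was counted 0, 13 and 0 times in the controls and 1442 and 476 times after exposure. Its transcripts were thus almost undetected at rest, present in both exposed pools, and higher in exposed pool 1 than in exposed pool 3. Mean expression rose from 0.0886 ± 0.153 CPM (SD, n = 3) to 22.7 ± 15.9 CPM (SD, n = 2). By edgeR, the log2 fold change was 7.92 with a standard error of 1.51 (adjusted p = 0.056), which 0.109% of all genes tested reached or exceeded. *Vgf* also passed the count threshold through the exposed pools only, so a share over all genes makes its fold change look rarer. The control mean rests on 1 pool and lies near the detection floor, so the size of the fold is uncertain. DESeq2 gave an adjusted p of 0.0343 while apeglm shrank its log2 fold change to 0.073, under the threshold of 0.5. Under edgeR, the call was lost without control pool 1 (adjusted p = 0.106), exposed pool 1 (0.35) or exposed pool 3 (0.139). Without control pool 2 the remaining control pools were at 0 counts, and the fitted log2 fold change of 12.94 is no measured fold.

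Relative to *Pcsk1*, and per exon length, *Vgf* stood at 0, 0.0598 and 0 in the controls and at 0.361 and 0.132 after exposure. The tested non-member gene nearest to *Vgf* over the 5 pools was *Wfdc17*, known as a gene of activated macrophages. *Wfdc17* was counted 0, 22 and 0 times in the controls and 1199 and 295 times after exposure (root mean square difference 0.523, adjusted p = 0.111 from edgeR's test, not called). Next came the decoy receptor gene *Tnfrsf23*, at 0 in each control pool and counted 532 and 440 times after exposure (root mean square difference 1.10).

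As *Wfdc17* is known from myeloid cells, the myeloid list is given beside *Vgf*. Its 9 genes summed to 139, 20.8 and 14.8 CPM in the controls and to 146 and 67.1 CPM after exposure. The genes did not share a course. *Csf1r* was counted 866, 0 and 0 times in the controls and 788 and 66 times after exposure, and *Cx3cr1* 309, 10 and 0 times against 6 and 0 times. *Ptprc*, which encodes the leukocyte antigen CD45, was counted 0, 54 and 1 times in the controls and 542 and 517 times after exposure. *Fcer1g* was called upregulated, the only one of the 4 myeloid genes tested. *Ptprc* and *Tyrobp*, like *Fcer1g* and *Vgf*, had both exposed pools above all controls. *Lyz2* was the largest part of the myeloid sum in control pool 1 and in exposed pool 1 (63.3 and 58.2 CPM), so the sum does not follow *Ptprc*. Both *Vgf* and *Ptprc* had 0 counts in control pool 1. The part of myeloid cells in the *Vgf* counts was not tested.

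*Scg2* encodes secretogranin II, a granin of dense-core granules from which the peptide secretoneurin is cut. The gene (ENSMUSG00000050711) occupies chr1:79434669-79440120 of GRCm38, minus strand, with exons of 2515 bases. *Scg2* also has the full CRE before its RefSeq start, with the first base at -68. These 30 bases of GRCm38.p6 sequence from RefSeq, chr1:79440076-79440105 read on the minus strand, are shown for comparison with the window of *Pcsk1*, and the capitals mark the CRE.
Scg2: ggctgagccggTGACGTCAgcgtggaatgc

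*Scg2* was counted 214, 21 and 69 times in the controls and 402 and 887 times after exposure. Both exposed pools were above all control pools, but exposed pool 1 was closer to control pool 1 than to exposed pool 3 on the count scale. Its mean was 2.30 ± 2.37 CPM (SD, n = 3) at rest and 15.4 ± 8.46 CPM (SD, n = 2) after exposure. The log2 fold change was 2.75 (95% interval 0.42 to 5.07), and it did not pass the threshold (edgeR adjusted p = 0.201). Control pool 1, the highest of the controls, bore on this: without it the log2 fold change was 4.00 and *Scg2* was called (edgeR adjusted p = 0.0802). It was also called by DESeq2 with apeglm (log2 fold change 1.68, adjusted p = 0.0548).

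The full CRE was found in 1.55% of all 32851 RefSeq promoter windows of 250 bases. The members matched 14 such windows from 6 genes, and the CRE was in 2 of them, those of *Pcsk1* and *Scg2*. The AP-1 motif TGACTCA, searched on both strands and present in 4.46% of all windows, was in 0 of the 14. The CRE core TGACG, searched on both strands and contained in the full CRE, was in 5 windows of the members and in 17.8% of all windows. Of these 5, 2 are overlapping windows of *Adcyap1* that hold the same core, at -91 from one start and -242 from the other. *Adcyap1* had no reads in any pool. Its first window, chr17:93198767-93199016 on the plus strand of GRCm38.p6, is shown as the counterpart of a motif without expression, with the core, first base at -91, in capitals.
Adcyap1: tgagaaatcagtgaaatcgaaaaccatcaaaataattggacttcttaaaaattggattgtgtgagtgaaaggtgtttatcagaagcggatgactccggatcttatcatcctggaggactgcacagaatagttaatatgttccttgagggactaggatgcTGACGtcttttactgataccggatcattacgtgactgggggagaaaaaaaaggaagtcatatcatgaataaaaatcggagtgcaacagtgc
No promoter window of *Vgf*, *Nptx1*, *Nptx2* or *Penk* was used here.

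**Figure D2:**
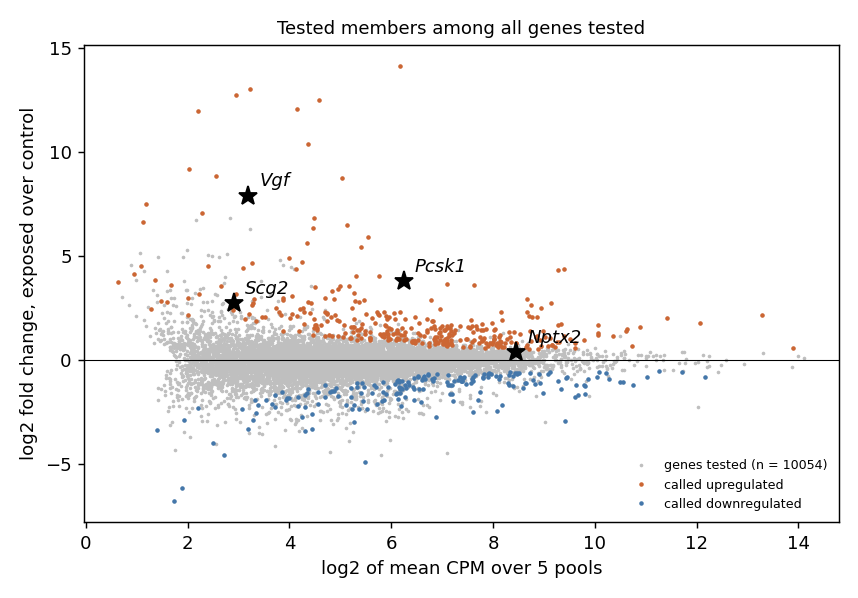
Log2 fold change (exposed over control pools) against the log2 of mean CPM over the 5 pools for all genes tested; grey points were not called, orange points were called upregulated, blue points downregulated, and stars are the 4 members tested. *Vgf* (7.92) and *Pcsk1* (3.80) are among the called genes, *Scg2* (2.75) was not called, and *Nptx2* (0.38) was not called and lies close to 0.

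*Nptx2* encodes neuronal pentraxin 2, also named NARP, a secreted protein that gathers AMPA receptors at synapses and was described as an activity-induced gene in the brain. It lies on the plus strand of chromosome 5 from 144545902 to 144557478 (ENSMUSG00000059991), with exons of 2536 bases. In these neurons *Nptx2* was abundant before any exposure, and its TPM, averaged over the 5 pools, ranked 283 among all genes. It was counted 11134, 18149 and 14264 times in the controls and 9820 and 24339 times after exposure. Exposed pool 1 was the lowest and exposed pool 3 the highest of the 5, so the exposed pools enclosed the controls. Its mean was 314 ± 56.3 CPM (SD, n = 3) at rest and 410 ± 252 CPM (SD, n = 2) after exposure. The log2 fold change of 0.38 (95% interval -0.54 to 1.31, edgeR adjusted p = 0.639) did not pass the threshold. It turned to -0.47 without exposed pool 3 and was 0.89 without exposed pool 1, and neither value was called (edgeR adjusted p = 0.456 and 0.287).

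*Nptx1*, the paralogue of *Nptx2*, was counted 2 times in control pool 1 and was at 0 elsewhere. *Nptxr*, which encodes the membrane-bound pentraxin that binds both, stood at 89.7, 160 and 41.3 TPM in the controls and at 24.4 and 23.5 TPM after exposure. The exposed pools were thus the lowest, as for 19.6% of all genes tested. Its log2 fold change of -1.83 (standard error 0.53, edgeR adjusted p = 0.15) was not called.

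*Gdf15* encodes a stress-induced ligand of the TGF-β family, whose transcription follows the integrated stress response. It was counted 122, 43 and 74 times in the controls and 69 and 96 times after exposure. The exposed values lay within the control range, at 1.97 ± 0.491 CPM (SD, n = 2) against 1.78 ± 0.987 CPM (SD, n = 3) in control. Without a filter on low counts its log2 fold change was 0.18 (unadjusted p = 0.886 from edgeR's test across all genes). All 7 listed genes of the integrated stress response were tested, and 2 were called upregulated, the amino acid response factor *Atf4* (log2 fold change 0.61, edgeR adjusted p = 0.0957) and *Sesn2* (1.43, edgeR adjusted p = 0.0444). Neither call held without exposed pool 1 (edgeR adjusted p = 0.506 and 0.333). *Atf4* was not called in any of the 5 fits that leave out a pool, and *Sesn2* was also lost without control pool 2 (0.13) and exposed pool 3 (0.105). *Trib3*, another gene of this response, had a log2 fold change of -0.77 and was not called (edgeR adjusted p = 0.188). *Asns*, also of this response, had a log2 fold change of 0.91 and was not called (edgeR adjusted p = 0.1003). Of the 7 genes, 5 had a positive log2 fold change.

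The other members were at or under the detection floor. *Bdnf*, the neurotrophin most often linked to neuronal activity, had 3 counts in exposed pool 3 and 0 counts elsewhere, although RefSeq lists 7 promoter windows for this gene. *Inhba*, which encodes the activin A subunit, had 1 count in control pool 3 and 0 counts elsewhere. *Adcyap1*, the gene of the neuropeptide PACAP, and *Penk*, which encodes the enkephalin precursor, had 0 counts in every pool. A count of 0 allows up to 3 counts, or 0.0613 to 0.0725 CPM, for counting error only. For *Bdnf* and *Penk*, 14.4% and 14.3% of the exon bases are shared with a gene on the opposite strand, and reads on shared bases are counted for neither gene. The other 8 members share no exon bases with another gene.

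The genes of prohormone processing and granules, 17 besides the members, set *Pcsk1*, *Vgf* and *Scg2* in their pathway. Of the 15 tested, 3 were called upregulated, 0 downregulated and 12 were not called, and the median log2 fold change was -0.07, against -0.03 over all genes tested. *Pcsk2*, the second convertase of the regulated pathway, had 3.71, 6.67 and 5.52 TPM at rest and 38.1 and 26.1 TPM after exposure. Its log2 fold change was 2.79 (standard error 0.32, edgeR adjusted p = 0.00922), and it was called with each pool left out in turn. Both exposed pools of *Pcsk2* lay above all controls. *Ptprn*, which encodes the granule membrane protein IA-2, went from a mean of 6.44 to 44.4 TPM (log2 fold change 2.92, edgeR adjusted p = 0.0354). *Scg3*, the granin that anchors others to the granule membrane, went from 182 to 292 TPM (log2 fold change 0.84, edgeR adjusted p = 0.0487). The call of *Ptprn* was lost without exposed pool 3 (edgeR adjusted p = 0.175), and that of *Scg3* without control pool 2 (0.145), exposed pool 1 (0.168) or exposed pool 3 (0.224).

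**Figure D3:**
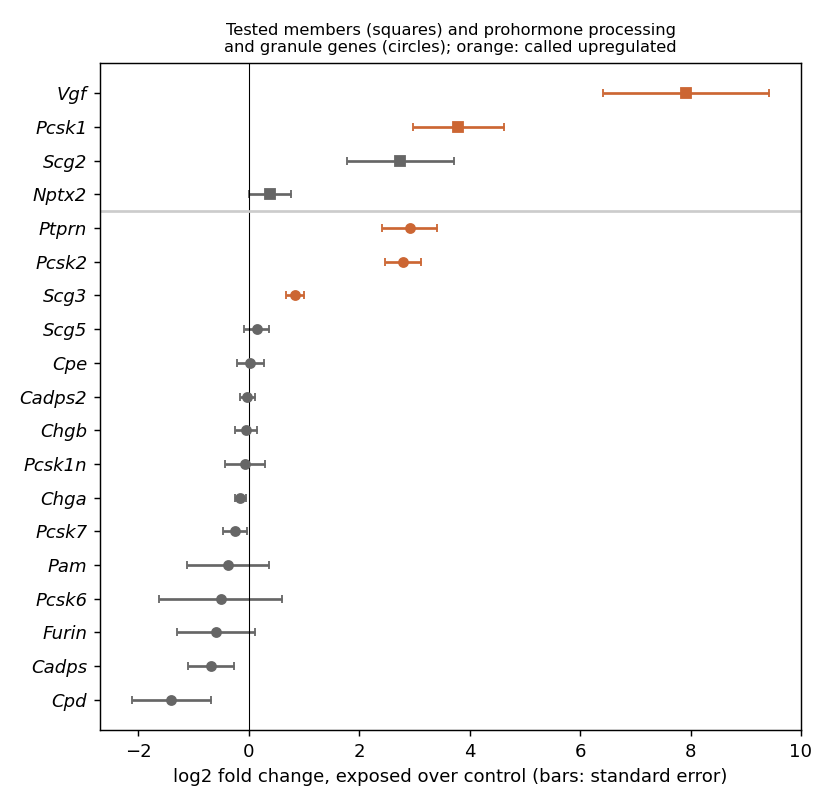
Log2 fold changes, exposed over control pools, of the 4 members tested (squares) and of the 15 tested genes of prohormone processing and granules (circles), with standard errors as bars; orange symbols were called upregulated. *Vgf*, *Pcsk1*, *Ptprn*, *Pcsk2* and *Scg3* are called, and of the symbols that were not called *Scg2* (2.75) and *Cpd* (-1.40) lie more than 1 log2 unit from 0.

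The most abundant genes of the list were not called. *Chga*, chromogranin A, stood at 4796, 5342 and 5324 TPM in the controls and at 3955 and 4290 TPM after exposure, with a log2 fold change of -0.16 (standard error 0.10, edgeR adjusted p = 0.432). *Cpe*, the carboxypeptidase that trims peptides after the convertases, had a log2 fold change of 0.03 (95% interval -0.56 to 0.61). *Scg5*, the chaperone of PC2, had a log2 fold change of 0.14 (95% interval -0.40 to 0.69). *Scg2* amounted to at most 0.00621 of *Chga* per exon length in any pool, so that the granins were dominated by *Chga* in both groups.

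Per exon length, *Pcsk1* was 3.94, 0.806 and 0.318 times *Pcsk2* at rest and 2.44 and 3.51 times after exposure, and the groups overlapped. Relative to *Furin*, the convertase of the constitutive pathway, *Pcsk1* stood at 0.686, 0.94 and 0.329 at rest and at 13.0 and 15.4 after exposure, and the groups did not overlap. *Furin* itself was counted 2640, 714 and 653 times in the controls and 946 and 724 times after exposure. Its log2 fold change of -0.60 (95% interval -2.32 to 1.13, edgeR adjusted p = 0.697) turned to 0.47 without control pool 1.

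**Figure D4:**
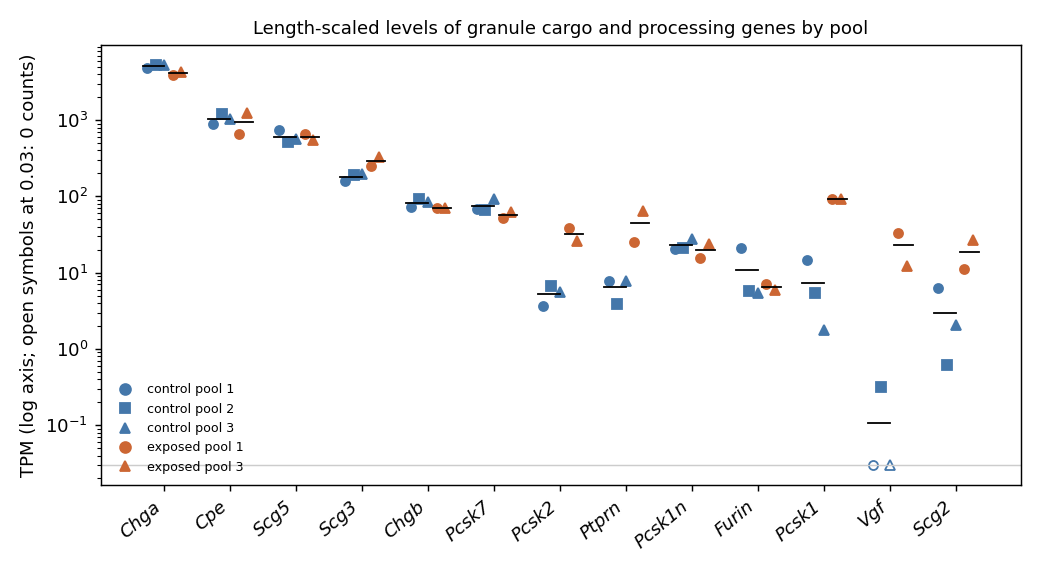
Length-scaled levels (TPM, log axis) of genes of granule cargo and prohormone processing in each pool; symbols are pools, horizontal lines are group means, and open symbols at 0.03 are pools with 0 counts. For *Cpe*, *Scg5*, *Pcsk1n* and *Furin* the groups overlap. Both exposed pools lie below the controls for *Chga* (3955 and 4290 TPM), *Chgb* (70.4 and 71.5 TPM) and *Pcsk7* (52.0 and 62.0 TPM). After TMM scaling, in CPM, this held for *Chga* only, and the groups overlapped for *Chgb* and *Pcsk7*. Both exposed pools lie above the controls for *Pcsk2*, *Ptprn*, *Pcsk1*, *Vgf*, *Scg2* and *Scg3*. In CPM, both exposed pools were above all controls for 20.3% of all genes tested and below them for 19.6%.

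Receptors of the members were mostly weakly expressed. Of the 16 listed, 5 were tested and 0 were called, and their median log2 fold change was -0.96. *Sort1*, which encodes the sorting receptor sortilin that binds BDNF and its precursor, stood at 115, 108 and 41.7 TPM in the controls and at 29.1 and 24.3 TPM after exposure (log2 fold change -1.56, standard error 0.47, edgeR adjusted p = 0.158). Without control pool 3, the lowest of the controls, both *Sort1* and *Nptxr* were called downregulated (log2 fold changes -1.88 and -2.17, edgeR adjusted p = 0.0125 and 0.0148). In that fit 429 of all genes tested were called downregulated, against 186 with all pools. *Ntrk2*, the receptor of BDNF, was counted 4, 43 and 73 times in the controls and 174 and 76 times after exposure and was not tested. The PACAP receptor gene *Adcyap1r1* and the opioid receptor gene *Oprm1* had 0 counts in every pool, whereas the activin receptor gene *Acvr2a* was present at 11.9 TPM on average at rest and 14.0 TPM after exposure (edgeR adjusted p = 0.556).

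Related ligands and binding proteins, 18 in all, were counted to see which other transcripts of this kind the pools held. Of them 9 were at or under 3 counts in every pool, 5 were tested and 0 were called, with a median log2 fold change of -0.01. *Cartpt*, the CART prepropeptide, was by far the most abundant, at 2802 ± 246 TPM (SD, n = 3) at rest and 2499 ± 252 TPM (SD, n = 2) after exposure (log2 fold change -0.01, 95% interval -0.37 to 0.36). *Ntf3*, a neurotrophin, was counted 336, 383 and 763 times in the controls and 1572 and 1234 times after exposure. Its groups did not overlap, but its log2 fold change of 1.63 (standard error 0.43, edgeR adjusted p = 0.114) did not pass the threshold. Without control pool 3, *Ntf3* was called (log2 fold change 2.12, edgeR adjusted p = 0.0344). *Pomc*, the precursor of several pituitary peptides, had a log2 fold change of 0.80 without a call (edgeR adjusted p = 0.379). The neuropeptide genes *Vip*, *Pdyn*, *Npy*, *Tac1* and *Crh* had 0 counts in every pool.

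Early genes of neuronal activity were counted in the same pools. Of the 10 listed, 7 were tested, 3 were called upregulated and 0 downregulated, with a median log2 fold change of 1.49. *Nr4a1* rose most in the list, from 73.1 ± 16.2 TPM (SD, n = 3) to 1341 ± 232 TPM (SD, n = 2), with a log2 fold change of 4.37 (edgeR adjusted p = 0.000963). *Junb* (1.65, edgeR adjusted p = 0.0723) and *Egr1* (1.49, edgeR adjusted p = 0.0578) were the others called, and *Fos* had a log2 fold change of 0.90 without a call (edgeR adjusted p = 0.109). *Fosb* (1.57), *Ier2* (0.39) and *Homer1* (0.51) were not called either, and all 7 tested genes had a positive log2 fold change. *Arc* was counted 307, 73 and 1319 times in the controls and 462 and 72 times after exposure. *Arc*, *Npas4* and *Crem* were not tested, and their groups overlapped. *Nr4a1* was called with each pool left out in turn, *Junb* was lost without control pool 1 (edgeR adjusted p = 0.13), exposed pool 1 (0.38) or exposed pool 3 (0.155), and *Egr1* without control pool 2 (0.184) or exposed pool 1 (0.336). Exposed pool 1 was above exposed pool 3 for *Nr4a1*, *Junb*, *Egr1* and *Fos*. The same held for *Vgf*, *Pcsk2* and, by a small margin, *Pcsk1*. Exposed pool 1 was below exposed pool 3 for the early gene *Homer1* and for *Scg2*, *Ptprn*, *Scg3* and *Nptx2*. The marker sums of sustentacular, myeloid, erythroid and ensheathing glia genes were also higher in exposed pool 1, and that of mature olfactory neurons was lower. With 2 pools, unrelated genes can share an order.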

How the data were processed

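The deposited counts were made by the authors with STAR 2.7.0a on GRCm38 and featureCounts 1.6.3, which summed uniquely mapped reads over the exons of each gene (Ensembl release with added reporter and ERCC sequences), without regard to strand and without normalization. Per the labels, libraries were made by SMARTer amplification (12 PCR cycles) and read in 50 bases. Reads carry no molecular identifiers, so limits cover counting error only. Of 55411 gene rows, 55144 were named.

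Tests used edgeR 4.0.16 in R 4.3.3 (TMM scaling, robust glmQLFit, glmQLFTest), with condition as the only factor. The threshold of 140 counts is where the distribution of log2 counts dips beside the peak of expressed genes, after the study's methods. CPM used TMM on the genes tested, and TPM used exon lengths. DESeq2 1.42.0 with apeglm 1.24.0 was an alternative. The procedure was tested on simulated data. Standard errors and intervals come from the quasi-likelihood F statistic. Named genes are all members, and in each list the called genes and up to 3 others of high TPM, with the 2 genes nearest in course to each called member. Other genes (*Ntrk2*, *Furin*, *Cpd*, *Homer1*, *Arc*, *Npas4*, *Crem*, genes at 0 counts and marker genes) were named after their values were seen. Members and lists were chosen with earlier results of these data known. Per the labels, mice were analysed on 3 consecutive days, 4 of each condition a day, and no label ties a pool number to a day. Pools are separate groups of mice, and p-values measure the spread between these pools. Exposed pool 2 was not analysed here.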

Additional observations from a re-analysis of the deposited data

How the results depend on the processing

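The calls depended on the processing. *Vgf*, *Pcsk1* and *Scg2* reached the count threshold in the exposed pools only, which favours higher values there. Testing at adjusted p under 0.05 or against the fold change threshold also keeps the fold changes of the main fit. With these limits, all 3 were higher in exposed pools in all 14 alternatives (for *Vgf*, down to a log2 fold change of 0.073). *Vgf* was called in 6 of them (adjusted p from 1.91e-08 to 0.35), *Pcsk1* in 6 (0.000196 to 0.359), *Scg2* in 3 (0.0371 to 0.533) and *Nptx2* in 0 (0.287 to 1), by edgeR or DESeq2. The log2 fold change of *Nptx2* ranged from -0.47 (without exposed pool 3) to 0.89 (without exposed pool 1).

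Against 344 upregulated and 186 downregulated genes, 2 upregulated members and 8 pathway genes called, the counts moved as follows, and unless stated the cause was not tested. DESeq2 with apeglm gave 671, 715, 2 members (*Scg2* and *Pcsk1*) and 15 pathway genes, and ERCC scaling, which moved the median of all tested genes from -0.03 to -0.23 (log2), gave 94, 49, 3 members (*Scg2* added, adjusted p = 0.0371) and 2 pathway genes. The filter of filterByExpr gave 163, 77, 0 members and 3 pathway genes, and no filter gave 0 members, where more genes were tested. A stricter adjusted p under 0.05 gave 190, 90, 0 members and 5 pathway genes. Testing against the fold change threshold (glmTreat) gave 147, 55, 1 member (*Vgf*) and 3 pathway genes. With each pool left out in turn, 93 to 348 genes were upregulated and 19 to 429 downregulated, with 0 to 2 members and 3 to 12 pathway genes called. The counts were 93 and 19 without exposed pool 1, 112 and 80 without exposed pool 3, and 160 and 64 without control pool 2, and 429 genes were downregulated without control pool 3. A lower density minimum of 58 counts as threshold, chosen after seeing the data, changed no call of *Vgf*, *Pcsk1*, *Scg2* or *Nptx2*. Pool numbers shared between groups gave correlations of deviations of 0.0276 and -0.0718. The deviations of 2 exposed pools mirror each other, so these correlations cannot show or exclude a pairing. Although both conditions were run on each of 3 days, the labels do not tie a number to a day, so pools were not taken as pairs. The replicate block on pool number left 11 upregulated and 0 downregulated genes, 0 members and 0 pathway genes (edgeR adjusted p = 0.162 for *Vgf* and 0.291 for *Pcsk1*), and the cause was not tested.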
